A study of Mus musculus with 12 samples.

Results

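The genes described are 10 genes of extracellular purine signalling and NAD turnover in mouse macrophages: the ATP-gated channels P2rx4 and P2rx7, the nucleotide receptors P2ry6 and P2ry14, the adenosine receptors Adora2a, Adora2b and Adora3, the ectonucleotidase Entpd1, the NAD-consuming ectoenzyme Cd38 and the NAD-synthesis enzyme Nampt. They were taken by gene symbol, and all 10 were present among the 24421 genes of both count tables. The series profiled polyA RNA of bone marrow-derived macrophages, primary cells grown from marrow progenitors, from male C57BL/6J mice aged 8 weeks. Its title places the endocytic recycling protein EHD1 in macrophage inflammation and atherosclerosis. The 4 groups of 3 libraries were LPS-treated cells with an siRNA against Ehd1 (siEhd1, M1), LPS-treated cells with a control siRNA (siControl, M1), resting cells with siEhd1 (M0) and resting cells with siControl (M0). All groups therefore carried an siRNA, and no untransfected group was among the samples. LPS, lipopolysaccharide, is a bacterial cell wall component that activates Toll-like receptor 4. How much LPS was given and for how long, which siRNA sequences were used and whether animals were pooled was not given in the sources used here.

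Cells under stress release ATP and other nucleotides, which act as danger signals on P2 receptors. P2X receptors are ATP-gated cation channels, of which P2X7 drives potassium efflux and inflammasome activation in macrophages. P2Y receptors couple to G proteins and sense ADP, UTP, UDP or nucleotide sugars. CD39, the product of Entpd1, strips phosphates from ATP and ADP, and the AMP left over is turned into adenosine, whose receptors encoded by Adora2a and Adora2b raise cyclic AMP and dampen macrophage activation. CD38 cleaves NAD and cyclic ADP-ribose, and NAMPT makes the NAD precursor nicotinamide mononucleotide, so the pair stand on opposite sides of NAD turnover.

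Library totals lay between 18572725 and 22545272 counts, and the lowest was the third LPS-treated siEhd1 library. All 8 macrophage markers listed stood at 5 CPM (counts scaled to library size) or more in every group, and the summed level of the 8 LPS response genes in the tables was 3020 to 3210 CPM in LPS-treated siEhd1, 3560 to 3990 CPM in LPS-treated siControl, 16.4 to 18.1 CPM in resting siEhd1 and 14.9 to 16.9 CPM in resting siControl libraries. After LPS the largest were Irg1 (1763 CPM with siEhd1, 2082 with siControl) and Il1b (971.4 and 1342), both called lower with siEhd1. Cxcl10 was called higher with siEhd1 after LPS (edgeR adjusted p = 0.0063), and Tnf, Il6, Nos2 and Ptgs2 were not called. Ehd1 itself stood at 301.8 ± 18.2 CPM with siEhd1 and 619.7 ± 64.5 CPM with siControl after LPS, and at 31.5 ± 2.35 and 53.2 ± 1.18 CPM in the resting cells with siEhd1 and siControl (SD, n = 3 each), which is 48.7% of siControl after LPS (edgeR adjusted p = 2.5e-08) and 59.2% at rest (edgeR adjusted p = 5.7e-07). Markers of lymphocytes, mast cells, dendritic cells and neutrophils summed to under 5 CPM in every library, with Cd3e, Ncr1, Mcpt4, Tpsb2 and Fcer1a at 0 in all 4 groups. The summed endothelial markers stood at 30.9 to 33.8 CPM in LPS-treated siEhd1, 28.8 to 32.7 CPM in LPS-treated siControl, 14.2 to 16.7 CPM in resting siEhd1 and 22.7 to 26.7 CPM in resting siControl libraries. Of the 3, Kdr averaged 25.7 and 23.7 CPM with siEhd1 and siControl after LPS and 14.6 and 24.3 CPM at rest. Pecam1 averaged 5.39 and 6.68 CPM with siEhd1 and siControl after LPS and 0.37 and 0.38 CPM at rest, and Cdh5 0.881 and 0.651 CPM after LPS and 0.156 and 0.146 CPM at rest. Both were called higher with LPS under either siRNA, and Kdr was called higher with LPS in siEhd1 cells and lower with siEhd1 at rest. The 4 stromal markers summed to 0.17 to 16.5 CPM over the libraries. Among them Dcn averaged 7.12 and 3.65 CPM with siEhd1 and siControl after LPS and 0.0569 and 0.0439 CPM at rest, and was called higher with LPS under either siRNA and with siEhd1 after LPS (edgeR adjusted p = 0.013). Cdh5 and Dcn met the filter on low counts through LPS-treated libraries alone, so the filter favoured their higher calls with LPS. The part of these other markers in the results was not tested.

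Levels differed widely between the genes. Per kilobase of annotated exon, LPS-treated siControl cells held most RNA of P2ry6 (86.2 CPM per kb, range 83.3 to 90.3) and P2rx4 (85.4, 81.4 to 88.4), whose libraries overlapped. Cd38 (71.3 CPM per kb) and Nampt (70.4, 67.8 to 73.9) came next and overlapped as well. Below them stood P2rx7 (15.6 CPM per kb, 15.3 to 15.9) and Adora2b (14.3, 13.5 to 15.7), again overlapping, and then Entpd1 (11.6). P2ry14 (3.21 CPM per kb, 2.94 to 3.58) and Adora2a (2.88, 2.74 to 3.03) overlapped near the low end, and Adora3 was lowest at 0.751 CPM per kb. In resting siControl cells the order was P2ry6 (78.5 CPM per kb), Entpd1 (51.8), P2rx4 (46.6), Nampt (32.9), P2rx7 (20.9), P2ry14 (1.70), Adora2b (0.801), Adora3 (0.157), Adora2a (0.0669) and Cd38 (0.0151). Neighbouring genes in that resting order had separate library ranges. Exon lengths are the union of GENCODE M21 exons, and the counting annotation was not given in the sources used here, so these values rank genes only approximately, and they set P2ry14 low through its long annotated union of 11059 bases.

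**Figure D1:**
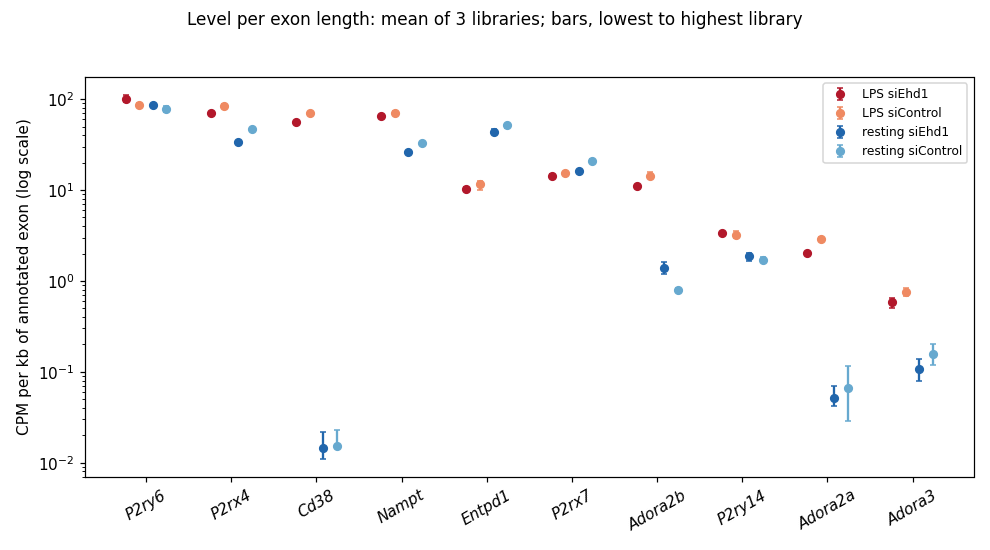
Level of each gene per kilobase of annotated exon (y axis, CPM per kb, log scale) in the 4 groups; points are means of 3 libraries and bars run from the lowest to the highest library, with no lower bar for resting siControl Cd38, whose lowest library had 0 counts. P2ry6 means stay between 78.5 and 100 CPM per kb, while Cd38 means lie at 0.0146 (siEhd1) and 0.0151 (siControl) CPM per kb in resting cells and at 56.0 (siEhd1) and 71.3 (siControl) after LPS.

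LPS moved nearly all of these genes. In siEhd1 cells 8 of the 10 rose with LPS and 2 fell, against 32.9% of the 12164 tested genes called higher and 34.0% called lower. In siControl cells 7 rose, 2 fell and P2ry6 was not called, against 34.8% called higher and 34.0% called lower over all tested genes. The median log2 fold change of the 10 genes was 1.18 in siEhd1 and 1.01 in siControl cells, beside -0.02 and -0.01 over all tested genes. Cd38 and Adora2a met the count filter through LPS-treated libraries alone, so their higher calls follow from the filter. Because each state was deposited as its own table, with no batch named in the labels, LPS cannot be told apart from any difference in how the states were handled. In bulk RNA, fewer cells of a type and less RNA per cell cannot be told apart either. Scaling by total counts instead of TMM factors shifted all LPS fold changes by a median of -0.22 in siEhd1 and -0.20 in siControl cells. It turned the split of calls over all genes to 2499 higher and 6244 lower in siEhd1 cells (4005 and 4139 with TMM) and to 2826 and 5860 in siControl cells (4237 and 4132).

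Cd38 showed the widest gap. Its gene lies on chromosome 5 of GRCm38 from 43868553 to 43912375 on the plus strand. It stood at 223.3, 223.7 and 206.4 CPM in the LPS-treated siEhd1 libraries and at 276.8, 277.9 and 277.8 CPM in the LPS-treated siControl libraries. Resting libraries held 1, 1 and 2 counts of it with siEhd1 and 2, 2 and 0 counts with siControl. The LPS-treated over resting ratio was 3840 with siEhd1 (95% exact counting interval 1500 to 14100) and 4740 with siControl (1850 to 17400), where the intervals cover counting error only. Cd38 was thus near the detection limit in every resting library and abundant in every LPS-treated one, with either siRNA.

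A gap of 24.6 kb separates Cd38 from Bst1 upstream, which encodes CD157, an ectoenzyme of the same ADP-ribosyl cyclase family (chromosome 5, 43818885 to 43843986, plus strand). Bst1 reached 214.2 ± 4.49 CPM in LPS-treated siEhd1 and 225.8 ± 13.2 CPM in LPS-treated siControl cells, against 14.7 ± 0.69 CPM in resting siEhd1 and 9.89 ± 1.2 CPM in resting siControl cells (SD, n = 3 each). It too rose with LPS, by 3.86 (SE 0.07, edgeR adjusted p = 2.7e-20) in siEhd1 and 4.51 (SE 0.07, edgeR adjusted p = 5e-21) in siControl cells on the log2 scale. Nampt rose less steeply: its level was 331.6, 324.5 and 331.0 CPM in LPS-treated siEhd1, 373.3, 342.5 and 352.1 CPM in LPS-treated siControl, 132.3, 132.8 and 134.3 CPM in resting siEhd1 and 168.9, 158.8 and 170.5 CPM in resting siControl libraries. The 4 groups did not overlap. The LPS log2 fold changes of Nampt were 1.31 (SE 0.05, edgeR adjusted p = 3.2e-15) in siEhd1 and 1.10 (SE 0.05, edgeR adjusted p = 4.7e-14) in siControl cells.

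The adenosine receptors rose together, from low resting levels. Adora2b (chromosome 11, 62248984 to 62266453, plus strand), a low-affinity Gs-coupled adenosine receptor, had 20.8, 20.4 and 20.6 CPM in LPS-treated siEhd1 libraries and 29.1, 25.0 and 25.2 CPM in LPS-treated siControl libraries. It had 2.48, 2.99 and 2.21 CPM in resting siEhd1 libraries and 1.45, 1.45 and 1.54 CPM in resting siControl libraries. Its libraries thus fell in 4 separate bands, with LPS raising it 8.03-fold in siEhd1 cells (log2 fold change 3.01, SE 0.11, edgeR adjusted p = 1.1e-15) and 17.8-fold in siControl cells (4.15, SE 0.12, edgeR adjusted p = 2e-17). Adora2a, a high-affinity Gs-coupled adenosine receptor, was measured at 6.04, 6.39 and 6.25 CPM in LPS-treated siEhd1 and 9.27, 8.38 and 8.85 CPM in LPS-treated siControl libraries. Resting libraries held 5, 3 and 3 counts of Adora2a with siEhd1 and 4, 2 and 8 counts with siControl. The LPS ratio of Adora2a was 39.8 (95% exact counting interval 22.0 to 80.5) with siEhd1 and 43.1 (25.5 to 79.4) with siControl. Adora3, a Gi-coupled adenosine receptor, averaged 2.2 ± 0.29 CPM in LPS-treated siEhd1, 2.80 ± 0.31 CPM in LPS-treated siControl, 0.398 ± 0.11 CPM in resting siEhd1 and 0.586 ± 0.15 CPM in resting siControl cells (SD, n = 3 each). It rose by 2.44 (SE 0.27, edgeR adjusted p = 7.8e-08) in siEhd1 and by 2.25 (SE 0.24, edgeR adjusted p = 4.5e-08) in siControl cells on the log2 scale. Exons of Adora3 share 779 of 3729 bases with Tmigd3 on the same strand, so its counts are uncertain, and Tmigd3 itself held 3 to 8 counts per group.

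Entpd1, the ectonucleotidase CD39 (chromosome 19, 40612366 to 40741602, plus strand), fell with LPS, while the 3 adenosine receptor genes rose. It stood at 57.5, 60.0 and 56.0 CPM in LPS-treated siEhd1, 55.7, 68.1 and 70.3 CPM in LPS-treated siControl, 230.7, 262.7 and 246.7 CPM in resting siEhd1 and 296.8, 273.0 and 297.7 CPM in resting siControl libraries. LPS-treated libraries were all far below resting ones, at 23.5% of the resting level in siEhd1 cells (log2 fold change -2.09, SE 0.08, edgeR adjusted p = 6.1e-15) and 22.4% in siControl cells (-2.16, SE 0.07, edgeR adjusted p = 3.2e-15). Nt5e, which encodes CD73, the enzyme that makes adenosine from AMP outside the cell, is given here for its place in the route and was near the detection limit, with a mean of at most 0.505 CPM in any group and 72 counts over all libraries. At these counts Nt5e was called higher with LPS in siControl cells (log2 fold change 2.59, SE 0.86, edgeR adjusted p = 0.011). In siEhd1 cells it was not called (0.77, SE 0.51, edgeR adjusted p = 0.19).

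The ATP-gated channels went opposite ways. P2rx4 (chromosome 5, 122707544 to 122729738, plus strand) encodes a channel found largely on lysosomes in macrophages, and P2rx7 lies 16.1 kb upstream of it on the same strand (122643911 to 122691432). P2rx4 stood at 487.0, 483.6 and 506.2 CPM in LPS-treated siEhd1, 621.3, 606.8 and 571.7 CPM in LPS-treated siControl, 240.4, 230.7 and 243.0 CPM in resting siEhd1 and 332.7, 323.8 and 326.0 CPM in resting siControl libraries. With LPS it rose by 1.05 (SE 0.05, edgeR adjusted p = 1.4e-13) in siEhd1 and 0.87 (SE 0.05, edgeR adjusted p = 2.4e-12) in siControl cells on the log2 scale. P2rx7 had 84.1, 82.5 and 90.9 CPM in LPS-treated siEhd1, 94.3, 91.1 and 94.7 CPM in LPS-treated siControl, 95.6, 96.6 and 99.9 CPM in resting siEhd1 and 131.5, 122.8 and 120.0 CPM in resting siControl libraries. It fell with LPS, by 0.18 (SE 0.05, edgeR adjusted p = 0.0047) in siEhd1 and 0.42 (SE 0.05, edgeR adjusted p = 4.9e-07) in siControl cells on the log2 scale. With scaling by total counts its falls were 0.41 and 0.61. Resting siControl cells thus stood apart with the highest P2rx7.

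Among the P2Y receptors, P2ry14, a receptor for UDP-glucose and other UDP-sugars, averaged 37.1 ± 0.65 CPM in LPS-treated siEhd1, 35.5 ± 3.66 CPM in LPS-treated siControl, 20.6 ± 2.21 CPM in resting siEhd1 and 18.8 ± 1.40 CPM in resting siControl cells (SD, n = 3 each). It rose with LPS by 0.85 (SE 0.08, edgeR adjusted p = 1.5e-08) in siEhd1 and 0.92 (SE 0.08, edgeR adjusted p = 4.9e-09) in siControl cells on the log2 scale. On chromosome 3 it stands 54.3 kb from P2ry13 and 62.7 kb from P2ry12, both ADP receptors named here for that position. P2ry13 stood at 11.8 ± 0.89 and 12.2 ± 3.82 CPM with siEhd1 and siControl after LPS and at 2.67 ± 0.18 and 1.82 ± 0.30 CPM at rest, and P2ry12 at 5.69 ± 0.45 and 4.64 ± 0.35 CPM after LPS and 2.50 ± 0.46 and 1.95 ± 0.49 CPM at rest (SD, n = 3 each). Both were called higher with LPS under either siRNA. P2ry6, the UDP receptor, changed little, at 270.6, 319.5 and 278.8 CPM in LPS-treated siEhd1, 240.6, 260.7 and 245.5 CPM in LPS-treated siControl, 235.4, 253.0 and 251.7 CPM in resting siEhd1 and 241.2, 211.0 and 227.8 CPM in resting siControl libraries. Its LPS log2 fold change was 0.23 (SE 0.06, edgeR adjusted p = 0.0034) in siEhd1 cells, a call lost with scaling by total counts (0.01, edgeR adjusted p = 0.91). In siControl cells it was 0.13 (SE 0.06, edgeR adjusted p = 0.069), and its sign turned with that scaling (-0.06, edgeR adjusted p = 0.36). It was called higher there with no count filter (edgeR adjusted p = 0.046) and without resting siControl library 1 (0.027), LPS-treated siControl library 1 (0.047) or LPS-treated siEhd1 library 2 (0.036).

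**Figure D2:**
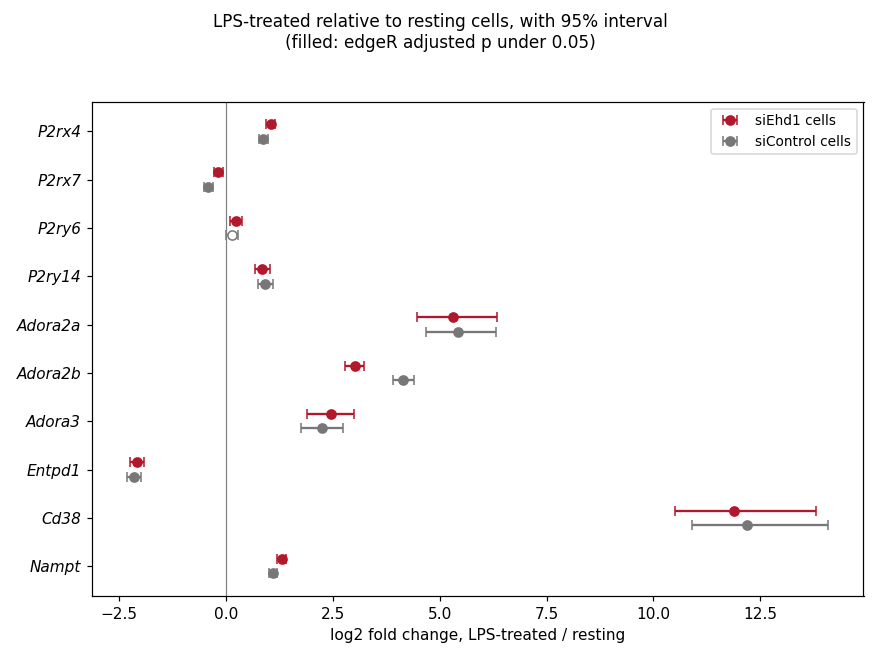
Log2 fold change of LPS-treated over resting cells (x axis) for each gene in siEhd1 and siControl cells, with 95% intervals; filled points passed the edgeR adjusted p threshold of 0.05, and for Cd38 and Adora2a the count ratio with its exact counting interval is drawn. Entpd1 and P2rx7 lie below 0, P2ry6 lies close to 0, and Cd38 lies near 12.

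Sequences around RefSeq start sites of Cd38, Adora2b and Adora3 are shown because these genes are 3 of the 4 with the largest rises after LPS. RefSeq promoter windows, 250 bases before to 50 after a start in GRCm38.p6, were held for 8 of the 10 genes, and P2ry6 and Adora2a were not matched. The windows were searched on both strands for the NF-κB consensus, the interferon response core (GAAA, any 2 bases, GAAA), the AP-1 site TGANTCA and the cyclic AMP response element TGACGTCA, which 8.46%, 3.44%, 7.81% and 1.79% of all 32851 such windows hold. Capitals mark a match, and all windows are written 5′ to 3′ on the plus strand of the genome, which is the coding strand of each of these genes. They lie at chr5:43868559-43868858, chr11:62248734-62249033 and chr3:105904171-105904470. The RefSeq starts used differ from the GENCODE gene starts for Cd38 (43868553) and Adora3 (105870858), whose windows lie wholly inside the GENCODE gene spans.
Cd38: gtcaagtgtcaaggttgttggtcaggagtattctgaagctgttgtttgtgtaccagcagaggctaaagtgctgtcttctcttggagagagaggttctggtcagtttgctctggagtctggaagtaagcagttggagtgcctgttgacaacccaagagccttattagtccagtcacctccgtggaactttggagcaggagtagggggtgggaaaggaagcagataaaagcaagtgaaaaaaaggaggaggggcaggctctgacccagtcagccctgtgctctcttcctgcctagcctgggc
Adora2b: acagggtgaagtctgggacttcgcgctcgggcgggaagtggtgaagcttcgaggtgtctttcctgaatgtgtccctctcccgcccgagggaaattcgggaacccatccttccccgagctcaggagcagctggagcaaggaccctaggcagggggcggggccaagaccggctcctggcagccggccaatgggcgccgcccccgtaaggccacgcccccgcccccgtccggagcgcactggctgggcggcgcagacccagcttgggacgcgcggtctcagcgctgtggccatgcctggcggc
Adora3: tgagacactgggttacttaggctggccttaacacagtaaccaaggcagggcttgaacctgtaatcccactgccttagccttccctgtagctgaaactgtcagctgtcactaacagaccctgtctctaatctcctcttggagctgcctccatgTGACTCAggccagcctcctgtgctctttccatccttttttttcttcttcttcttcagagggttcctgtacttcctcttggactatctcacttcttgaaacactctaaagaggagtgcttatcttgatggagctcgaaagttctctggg

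The Adora3 window held an AP-1 match starting 98 bases before the RefSeq start, and none of the 4 motifs was found in the Cd38 and Adora2b windows. AP-1 matches were also found in windows of P2rx7 and P2ry14, and no window of P2rx4, Nampt or Entpd1 held any of the 4. These are letter matches in short windows, and an absent match says only that the letters are not there.

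In LPS-treated cells 4 of the 10 fell with siEhd1, 1 rose and 5 were not called, against 4.10% of tested genes called lower and 4.44% called higher. The lower genes there were Cd38, P2rx4, Adora2a and Adora2b, each raised by LPS. LPS raised 8 of the 10 genes in siEhd1 and 7 in siControl cells, and of these Adora3, Nampt and P2ry14 were not called with siEhd1. The median siEhd1 log2 fold change of the 10 genes was -0.22, beside 0.00 over all tested genes. In resting cells 4 of the 10 fell, 1 rose and 5 were not called, against 14.2% called lower and 14% called higher over all tested genes. There the lower genes were P2rx4, P2rx7, Nampt and Entpd1, the higher was Adora2b, and the median log2 fold change was -0.27 over the 10 genes and -0.02 over all tested genes. Macrophage markers moved with siEhd1 at rest as well: 5 of the 8 were called lower, namely Csf1r (86.4% of siControl), Lyz2 (79.5%), Mertk (66.0%), Fcgr1 (57.3%) and Cd14 (87.1%), and none was called higher. The summed level of the 8 was 19600 to 21000 CPM in resting siEhd1 and 23600 to 24300 CPM in resting siControl libraries. After LPS Cd14 alone of the 8 was called lower with siEhd1 (83.7%), with sums of 35200 to 36900 CPM in siEhd1 and 32200 to 38700 CPM in siControl libraries. The part of these shifts in the results for the 10 genes was not tested. Only P2rx4 was called lower in both states, and the genes were chosen with earlier results of these libraries known.

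After LPS the fall was clearest for Cd38, whose siEhd1 libraries (206.4 to 223.7 CPM) all lay below the siControl libraries (276.8 to 277.9 CPM). It stood at 78.5% of the siControl level (log2 fold change -0.35, SE 0.05, edgeR adjusted p = 3e-04). P2rx4 stood at 82.1% (-0.29, SE 0.05, edgeR adjusted p = 0.00088), Adora2b at 78.1% (-0.36, SE 0.08, edgeR adjusted p = 0.0074) and Adora2a at 70.5% (-0.50, SE 0.13, edgeR adjusted p = 0.015). In each of these the 3 siEhd1 libraries lay below the 3 siControl libraries, a separation that was not counted over all tested genes. The Adora2a call was lost without the first (edgeR adjusted p = 0.078) or the third (0.052) LPS-treated siEhd1 library. P2ry6 was the gene called higher, at 116% (0.22, SE 0.06, edgeR adjusted p = 0.039), and that call was lost without LPS-treated siControl library 1 or 3 or LPS-treated siEhd1 library 2 or 3 (edgeR adjusted p from 0.054 to 0.21) and in a fit of the LPS-treated groups alone (0.064).

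The remaining genes after LPS had edgeR adjusted p above 0.05. Nampt (-0.11, SE 0.05), P2rx7 (-0.12, SE 0.05) and Adora3 (-0.35, SE 0.19) had every siEhd1 library below every siControl library, with edgeR adjusted p of 0.17, 0.18 and 0.31. How many of all tested genes separated in this way was not counted, so the separation is no evidence beyond these tests. Entpd1 overlapped between the groups (-0.16, SE 0.08, edgeR adjusted p = 0.23), and without LPS-treated siControl library 1 it was called lower (-0.26, edgeR adjusted p = 0.016). P2ry14 stood at 104% of siControl, with a log2 fold change of 0.06 and a 95% interval that spans 0 (edgeR adjusted p = 0.74).

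At rest P2rx4 fell to 72.7% of siControl with siEhd1 (log2 fold change -0.46, SE 0.05, edgeR adjusted p = 1e-06), P2rx7 to 78.1% (-0.36, SE 0.05, edgeR adjusted p = 3e-05) and Nampt to 80.2% (-0.32, SE 0.05, edgeR adjusted p = 7.1e-05). Entpd1 fell to 85.3% (-0.23, SE 0.07, edgeR adjusted p = 0.019), a call lost without resting siControl library 1 (0.073) or 3 (0.064) or resting siEhd1 library 1 (0.11). None of these 4 overlapped between siEhd1 and siControl libraries, and the share of all tested genes without such overlap was not counted. Adora2b alone rose, to 173% of siControl (0.79, SE 0.16, edgeR adjusted p = 0.0011), at levels of 2.21 to 2.99 CPM with siEhd1 and 1.45 to 1.54 CPM with siControl. Not called were P2ry6 (0.12, SE 0.06, edgeR adjusted p = 0.17), P2ry14 (0.13, SE 0.09, edgeR adjusted p = 0.28) and Adora3 (-0.55, SE 0.34, edgeR adjusted p = 0.24). Cd38 with 4 counts per group (ratio 0.971, 95% exact counting interval 0.181 to 5.22) and Adora2a with 11 counts with siEhd1 and 14 with siControl (0.763, 0.314 to 1.81) were too sparse at rest for a difference of the size seen after LPS to be detectable.

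**Figure D3:**
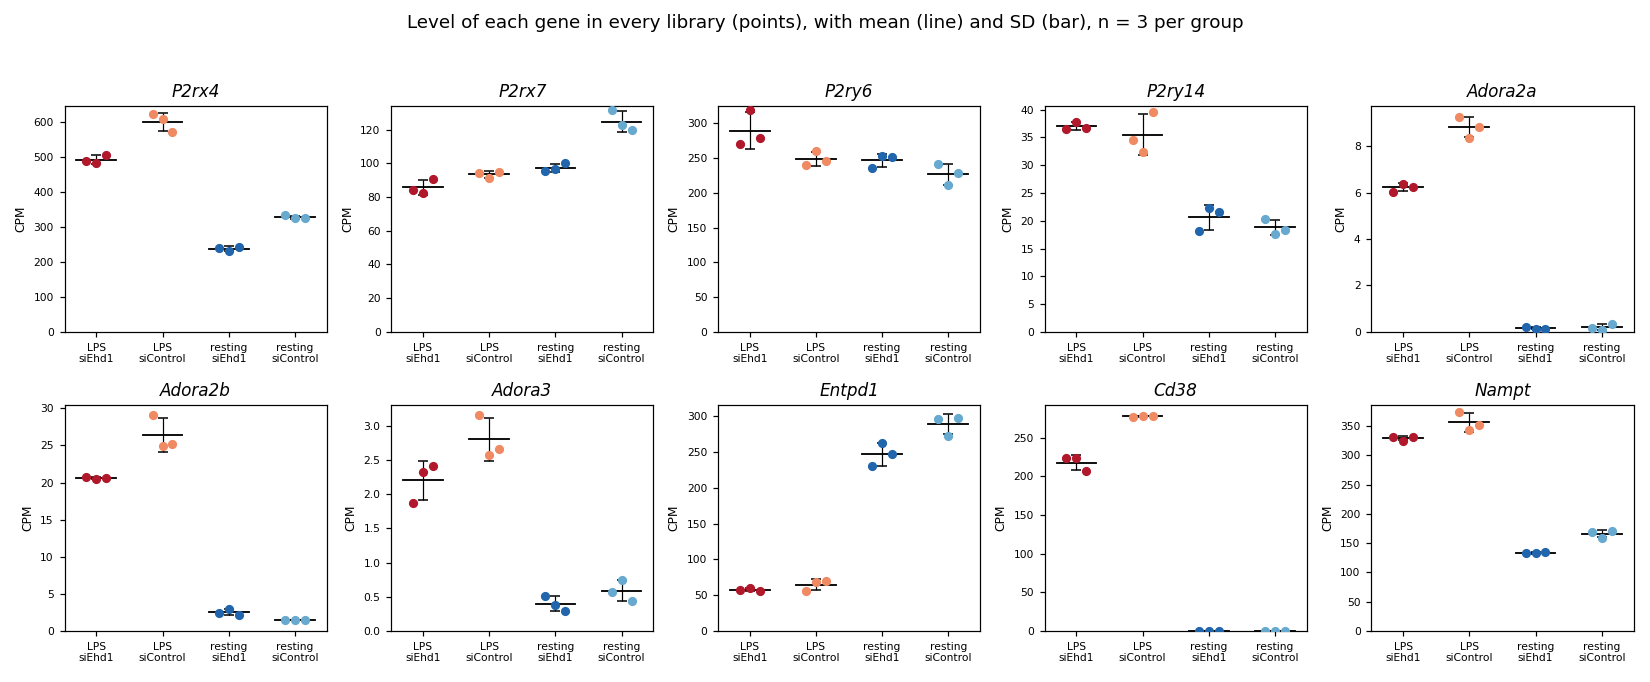
Level of each of the 10 genes (y axis, CPM from 0, own scale per gene) in every library of the 4 groups; points are libraries, the line is the mean and the bar the SD of 3 libraries. Adora2b is lower with siEhd1 after LPS (20.4 to 20.8 against 25.0 to 29.1 CPM) and higher with siEhd1 at rest (2.21 to 2.99 against 1.45 to 1.54 CPM), and P2rx4 is lower with siEhd1 in both states.

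The siEhd1 effect on Adora2b differed between the states. Expressed as the effect after LPS minus the effect at rest, the difference was -1.15 on the log2 scale (SE 0.18, 95% interval -1.53 to -0.77, edgeR adjusted p = 6e-04), and it was called in all 18 alternatives. Of the 10 genes it was the only one called in that test by edgeR, against 2.93% of tested genes called lower and 3.12% called higher. The same number says that LPS raised Adora2b less with siEhd1 than with siControl. P2rx7 (0.24, SE 0.07, edgeR adjusted p = 0.067), Nampt (0.20, SE 0.07, edgeR adjusted p = 0.092) and P2rx4 (0.18, SE 0.07, edgeR adjusted p = 0.17) had smaller siEhd1 falls after LPS than at rest, but these differences were not called by edgeR. With DESeq2 those of P2rx7 (DESeq2 adjusted p = 0.037) and Nampt (DESeq2 adjusted p = 0.027) were called, and Nampt was called by edgeR without LPS-treated siControl library 1 (edgeR adjusted p = 0.043). The differences for P2ry6 (0.10, SE 0.09, edgeR adjusted p = 0.63), P2ry14 (-0.07, SE 0.12, edgeR adjusted p = 0.81), Adora3 (0.20, SE 0.38, edgeR adjusted p = 0.84) and Entpd1 (0.07, SE 0.10, edgeR adjusted p = 0.79) were not called, and the last 3 of them changed sign without single libraries. For Cd38 and Adora2a the resting counts left the difference poorly bounded (SE 0.85 and 0.60 on the log2 scale).

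**Figure D4:**
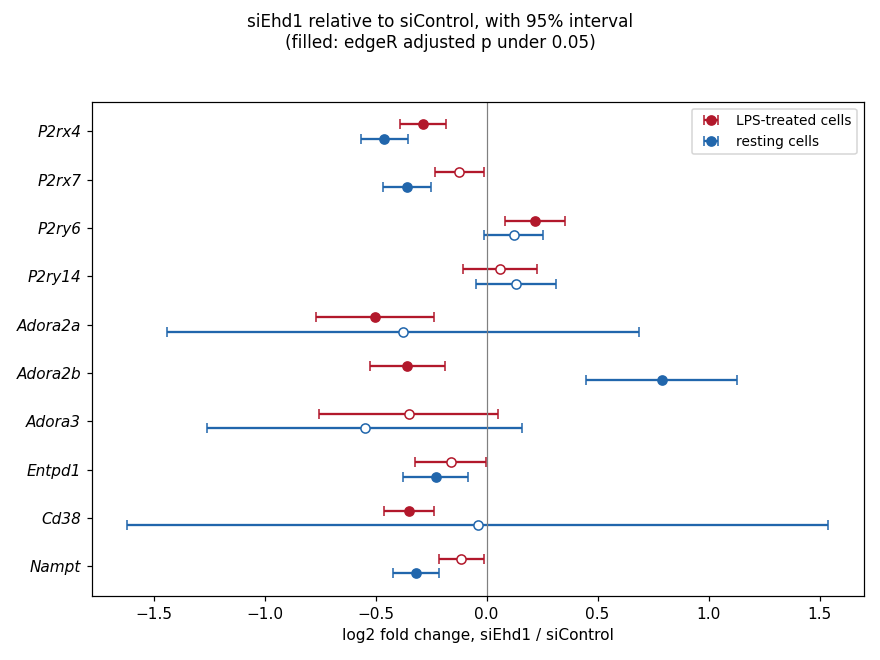
Log2 fold change of siEhd1 over siControl (x axis) for each gene in LPS-treated and resting cells, with 95% intervals; filled points passed the edgeR adjusted p threshold of 0.05. Adora2b lies at -0.36 after LPS and at 0.79 at rest, while P2rx4 lies at -0.29 and -0.46, below 0 in both.

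Other genes of the pathway were followed in a list of 54 purine and NAD genes, of which 36 passed the count filter. After LPS with siEhd1 16 of the 36 rose and 13 fell, and with siControl 17 rose and 12 fell. These are 44.4% higher and 36.1% lower in siEhd1 cells, beside 32.9% and 34.0% of all tested genes, and 47.2% and 33.3% in siControl cells, beside 34.8% and 34.0%. The median log2 fold changes were 0.03 and 0.00. Gja1, called higher under either siRNA, had resting group means under the count filter limit of 0.459 CPM. Sarm1, called lower under either siRNA, and P2rx5, called lower in siEhd1 cells, had LPS-treated group means under it. The filter favoured these calls, and how many calls it favoured over all tested genes was not counted. Beside Bst1, the smallest p-values were those of Pnp, P2ry1 and Enpp4. Pnp, the purine nucleoside phosphorylase that breaks down inosine and guanosine, averaged 563.3 and 576.0 CPM with siEhd1 and siControl after LPS and 120.8 and 171.8 CPM at rest. Pnp has a near-identical neighbour, Pnp2, so its counts are uncertain, and Pnp2 averaged 5.89 to 41.2 CPM per library. P2ry1, an ADP receptor, was at 1.18 and 1.12 CPM with siEhd1 and siControl after LPS and at 15.3 and 20.3 CPM at rest, so it fell by 3.69 (SE 0.14, edgeR adjusted p = 3.5e-15) and 4.17 (SE 0.14, edgeR adjusted p = 2.8e-16) on the log2 scale. Enpp4, a member of the ectonucleotide pyrophosphatase family, rose by 3.47 (SE 0.11, edgeR adjusted p = 1.3e-16) in siEhd1 and 2.83 (SE 0.10, edgeR adjusted p = 6.4e-16) in siControl cells.

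With siEhd1 at rest 4 of the 36 rose and 9 fell (11.1% and 25.0%, beside the all-gene shares of 14% and 14.2%). Pnp (-0.51, SE 0.05, edgeR adjusted p = 7.1e-07), Enpp4 (-0.81, SE 0.14, edgeR adjusted p = 0.00023) and the ATP-hydrolysing Enpp1 (-0.41, SE 0.08, edgeR adjusted p = 0.001) fell, and Bst1 rose (0.57, SE 0.08, edgeR adjusted p = 3.5e-05). Another of the 4 higher calls was the sparse Nt5e (0.299 CPM with siEhd1 and 0.0439 CPM with siControl, edgeR adjusted p = 0.024). Nt5e reached the limit of the count filter in siEhd1 libraries alone. P2rx5, also called higher (edgeR adjusted p = 0.0018), reached it in resting siEhd1 libraries alone. Both higher calls were thus favoured by the filter. After LPS 2 of the 36 rose and 2 fell with siEhd1 (5.56% each), close to the 4.44% higher and 4.10% lower of all tested genes. The DNA damage enzyme Parp1, which consumes NAD, rose (0.22, SE 0.05, edgeR adjusted p = 0.011), a call lost without LPS-treated siEhd1 library 1 (0.055). The nucleoside transporter Slc28a2 fell (-0.43, SE 0.10, edgeR adjusted p = 0.019), a call lost without LPS-treated siControl library 2 (0.054), without LPS-treated siEhd1 library 2 (0.073) or 3 (0.059), or in a fit of the LPS-treated groups alone (0.096). Enpp1 rose (0.36, SE 0.11, edgeR adjusted p = 0.037) and the NAD synthesis gene Nmnat3 fell (-0.28, SE 0.09, edgeR adjusted p = 0.049). The Enpp1 call was lost in 9 alternatives and the Nmnat3 call in all 19.

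The test of the difference between states called Bst1 (-0.65, SE 0.10, edgeR adjusted p = 0.00058), Enpp1 (0.78, SE 0.14, edgeR adjusted p = 0.0013), Pnp (0.48, SE 0.08, edgeR adjusted p = 0.00057) and Enpp4 (0.64, SE 0.16, edgeR adjusted p = 0.022) among the 36. Bst1 shares with Adora2b a negative difference and a higher resting level with siEhd1. The Enpp4 call was lost without resting siControl library 1 (0.095), resting siEhd1 library 2 (0.061) or 3 (0.068), or LPS-treated siEhd1 library 1 (0.05).

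**Figure D5:**
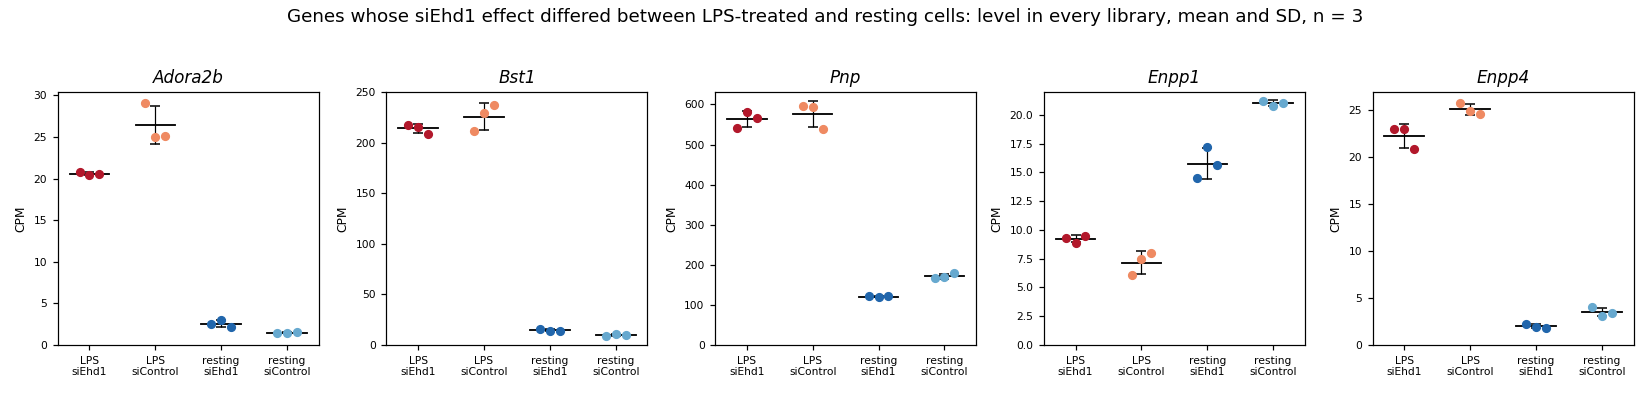
Level (y axis, CPM from 0, own scale per gene) of Adora2b and of the 4 list genes whose siEhd1 effect differed between states, in every library of the 4 groups; points are libraries, lines means and bars SD of 3 libraries. Enpp1 is higher with siEhd1 after LPS (8.91 to 9.46 against 6.07 to 7.99 CPM) and lower with siEhd1 at rest (14.5 to 17.2 against 20.7 to 21.2 CPM), while Adora2b shows the reverse order.

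Likeness of pattern was taken as the root mean square difference between the 4 centred group means of log2 CPM, over the 45 other genes of the combined lists. P2ry14 was nearest to Entpd7, an intracellular nucleotidase gene (0.06 log2 units), and P2rx7 to Naprt, which makes NAD from nicotinic acid (0.06). P2rx4 and Nampt were both nearest to Ampd3, an AMP deaminase gene (0.14 and 0.13), and stood 0.14 from each other. Adora2b was nearest to Bst1 (0.35) and Adora2a to the gap junction gene Gja1 (0.25). P2ry6 was nearest to the nicotinamide riboside kinase gene Nmrk1 (0.14), Adora3 to Pnp (0.15) and Entpd1 to the NAD-cleaving enzyme gene Sarm1 (0.32). Sarm1 was sparse, with 184 counts over all libraries, and the log2 CPM used a prior count of 2. Fitted LPS log2 fold changes in siEhd1 and siControl cells were -1.50 and -2.89 for Sarm1, against -2.09 and -2.16 for Entpd1. Cd38 had no close gene, with Gja1 nearest at 2.92.

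A 7-base sequence, GCCTTGT, had been noted in earlier work on these libraries in 3′ untranslated regions of genes lower with siEhd1, and the regions of the 10 genes were searched for it on the transcript strand. In LPS-treated cells 48.6% of the searched genes called lower carried it, against 9.77% of those called higher and 12.2% of those not called, and in resting cells the shares were 27.2%, 8.35% and 11.9%. As the sequence was noted in genes lower in these same libraries, its higher share among them was built in and is no separate evidence. The genes called lower had longer regions, with medians of 1596 bases after LPS and 1474 bases at rest. Medians were 1319 and 1140 bases for genes called higher, and 1127 and 1100 bases for genes not called. The part of region length in these shares was not tested. Of the 10 genes, Adora2a alone held GCCTTGT, 270 bases into a region of 848 bases. The site is shown because Adora2a fell with siEhd1 after LPS; the 7 bases are in capitals, written 5′ to 3′ on the plus strand, and the stretch lies at chr10:75334196-75334222 in GRCm38.
Adora2a: gagctgccttGCCTTGTagagcagctg

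Cd38, P2rx4 and Adora2b, which also fell after LPS, and P2rx7, Nampt and Entpd1, which fell at rest, had 0 copies in regions of 728 to 2985 bases. The part of this sequence in the Adora2a result was not tested.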

How the data were processed

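The values are unnormalized read counts per gene, which the authors deposited as a table for each state. The submitters' processing notes name featureCounts 2.20.0 and STAR 2.7.6a with mm10, cutadapt under Trim Galore 0.6.3, FastQC 0.10.1, and R 4.4.2 with DESeq2 1.46.0. Gene models, strandedness and the handling of multiply mapped reads were not given in the sources used here. Columns were matched by library name, and 0 were left unused.

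All 12 libraries entered 1 edgeR 4.0.16 fit in R 4.3.3 (filterByExpr with minimum count 10 and minimum total 15, 12164 of 17270 genes with a count kept, TMM factors, robust quasi-likelihood F test, 1 mean per group). P-values were Benjamini-Hochberg adjusted over all tested genes at a threshold of 0.05. SE is the absolute log2 fold change over the square root of F, CPM is TMM-scaled, and values are mean ± SD. For genes with few counts, ratios of summed counts with exact 95% intervals replace fitted folds. The code was checked on simulated data.

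Whether replicates are separate animals or cultures is not in the labels, so p-values here reflect spread among libraries that may be technical. Within groups, every pair of libraries differed beyond counting noise, with a chi-square of 3.10 to 24.8 per degree of freedom. Same-numbered siEhd1 libraries of the LPS-treated and resting states deviated together from their group means (r = 0.169, 0.398 and 0.194 across 9432 genes), so the LPS comparison in siEhd1 cells was also fitted with the number as a block, which changed no call among the 10 genes.

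Named genes were the 10 genes, Ehd1, and per comparison up to 4 called genes of the list of 54 with the smallest p. Others are named for position, route, pattern or the count filter. The genes and lists were chosen with earlier results of these data known. Alternatives were DESeq2 1.42.0, limma-voom (limma 3.58.1), other scalings, no count filter, only the groups compared, the replicate block and each library left out.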

Additional observations from a re-analysis of the deposited data

Results flagged for a closer look

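The effect of siEhd1 differed between LPS-treated and resting cells, by the edgeR test of the difference, for Adora2b (-1.15 on the log2 scale), Bst1 (-0.65), Enpp1 (0.78), Enpp4 (0.64) and Pnp (0.48). Adora2b and Enpp1 were called in opposite directions in the 2 states. Both Adora2b calls held in all 19 alternatives, and the Enpp1 call after LPS was lost in 9 of 19. Bst1, Enpp4 and Pnp were called at rest and not after LPS.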

How the results depend on the processing

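Over 20 alternatives, 924 of 958 log2 fold changes of the 10 genes kept their direction and side of the threshold, 12 lost a call, 8 gained one and 14 changed sign. Of 30 calls, 26 held in every alternative that gave a value; the others were Entpd1 at rest, P2ry6 and Adora2a with siEhd1 after LPS and P2ry6 with LPS in siEhd1 cells. The gene called higher with siEhd1 after LPS went to 0 in a fit of the groups compared and with the replicate block, and ranged from 0 to 1 over left-out libraries. In the difference between states the genes called higher numbered 2 with DESeq2 and 0 to 1 over left-out libraries.

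Sign changes were confined to uncalled values. Over left-out libraries the siEhd1 effect at rest ranged from -0.732 to 0.238 for Adora2a and from -0.579 to 0.335 for Cd38, which was 0.241 with limma-voom. The difference between states ranged from -0.157 to 0.0194 for P2ry14, -0.741 to 0.229 for Adora2a, -0.0105 to 0.418 for Adora3, -0.0289 to 0.137 for Entpd1 and -0.684 to 0.23 for Cd38. P2ry6 with LPS in siControl cells was -0.0615 with scaling by total counts. The cause was not tested, but resting Cd38 and Adora2a rest on at most 8 counts per library.

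Outside the replicate pairing given above, same-numbered libraries did not deviate together consistently (r from -0.369 to 0.177 between siEhd1 and siControl, and from -0.148 to 0.0271 between LPS-treated and resting siControl). The 0.177 was that of LPS-treated siEhd1 library 2 with siControl library 2, against -0.166 to 0.0451 with the other siControl libraries. At rest, each siEhd1 library correlated most with a siControl library of another number (r = 0.298, 0.364 and 0.402 for siEhd1 libraries 1, 2 and 3). What these values reflect was not tested. The block there may therefore share only a number. It ended the P2ry6 call after LPS (log2 fold change 0.216, edgeR adjusted p = 0.056). Without resting siControl library 1, genes called lower with siEhd1 at rest numbered 1148, and without LPS-treated siEhd1 library 1 those called after LPS numbered 304 higher and 303 lower. Genes called in the difference between states ranged from 243 to 429 higher and 209 to 418 lower over left-out libraries (379 and 356 with all), with 232 lower under the block. Of the other list genes, 0 to 2 were called higher and 0 to 1 lower with siEhd1 after LPS over all alternatives.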
